A study of Homo sapiens with 4 samples.

Results

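The subject is the family of aminoacyl-tRNA synthetases, the enzymes that load each transfer RNA with its amino acid. The members are the 36 genes of a list of synthetase symbols, which was drawn up with earlier results of these data known. All 36 were found by name among the 56303 genes of the count table. Of these, 20 encode cytosolic enzymes and 16, whose symbols end in 2, encode the mitochondrial ones. Symbols are the older ones written in the table, such as AARS for alanyl-tRNA synthetase.

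RNA was sequenced from EJ and T24T, which are established lines of human bladder cancer cells, in 4 libraries of 1 per group. One library of each line came from cells transfected with hsa_circ_0008399, a circular RNA (circ), and the other from cells given the vector. The stated aim was a search for genes that the circular RNA regulates. Counts per gene do not measure a circular RNA apart from its host gene, so its level was not checked here. EJ is recorded in cell line registries as a derivative of T24, and T24T is a variant of T24, so the lines are related by origin and are no wide sample of bladder cancers. Nothing in the labels says whether the libraries came from separate cultures, so p-values measure only the spread between these 4 libraries. Values for the libraries are listed in a fixed order, namely EJ vector, EJ circ, T24T vector, T24T circ.

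The libraries held between 14703455 and 18057768 counts, and the 36 members took between 0.375% and 0.501% of them. The epithelial keratins KRT7, KRT8 and KRT18 had at least 2164 counts in every library, but KRT19 had at most 4, EPCAM 4 to 7 in EJ and 111 to 117 in T24T, and CDH1, the epithelial cadherin, at most 3. Of the urothelial markers, UPK3A and KRT5 had 0 counts in all libraries, and UPK1B, KRT20, GATA3, KRT14, KRT6A and TP63 had at most 5. UPK2 (23 to 48), FOXA1 (26 to 70), PPARG (11 to 44) and UPK1A (7 to 25) were low. CD44, which basal urothelium shares with many other cells, had 5463 to 13673. Of the mesenchymal genes, VIM (9479 to 12309 counts) and FN1 (1882 to 22587) were high. CDH2 had 1501 to 1728 counts in EJ but 142 to 169 in T24T, and ZEB1 had 435 to 875. None of the leukocyte markers PTPRC, CD3E and CD14 exceeded 2 counts and no endothelial marker (PECAM1, VWF, CDH5, KDR) exceeded 9. Defining markers of the labelled epithelial origin were thus mixed, with keratins present and CDH1 nearly absent. In such bulk RNA, fewer cells that express a gene and less RNA of it per cell cannot be told apart.

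Each synthetase recognises 1 amino acid and its transfer RNAs, spends ATP to activate the amino acid and joins it to the RNA end. Cytosol and mitochondria mostly use separate enzymes, all encoded in the nucleus, but GARS and KARS each serve both compartments. EPRS carries glutamate and proline activity in 1 chain, FARSA and FARSB are the subunits of 1 enzyme, and 8 of the cytosolic members (EPRS, IARS, LARS, QARS, MARS, KARS, RARS and DARS) sit together in the multisynthetase complex. Many cytosolic synthetase genes are known targets of ATF4, the transcription factor of the integrated stress response, which binds DNA elements of the form TGATGNAA.

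Because the members fall into those with and without these letters near their start, the matching stretches are shown first. They come from the RefSeq promoter table (GRCh38.p14), which spans 250 bases before and 50 bases after each gene's start. Entries in it were matched to 30 of the 36 members, 16 cytosolic and 14 mitochondrial. DARS, LARS, VARS, YARS, AARS2 and VARS2 were matched to no entry. Whether the entry was absent or the name did not lead to a single RefSeq gene was not recorded. TGATGNAA, searched on both strands, matched in 6 of the 16 cytosolic promoters and in 1 of the 14 mitochondrial ones, against 3.67% of all 27305 promoters in the table. All 6 cytosolic matches read TGATGCAA or its reverse complement TTGCATCA. These exact letters, searched in addition, occurred in 0.923% of all promoters and in none of the 14 mitochondrial ones. They are the letters of the cytosolic matches themselves, so this share is no separate support. The longer TGATGCAAT matched in 1 of the 16 cytosolic promoters (TARS), in 0 of the 14 mitochondrial ones and in 0.264% of all. Each stretch below is written on the gene's strand, with the match in capitals.
AARS: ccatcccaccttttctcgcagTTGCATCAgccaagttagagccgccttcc
CARS: gcgcgacttccggggcggcggTTGCATCA
IARS: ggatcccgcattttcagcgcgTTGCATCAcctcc
MARS: gaagcgggaggccggttccggTTGCATCA
NARS: cgccctcagatctacgctctcTGATGCAA
TARS: cggggttagggcgcctttcgaTTGCATCA
YARS2: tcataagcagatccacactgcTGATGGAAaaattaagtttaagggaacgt

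The stretches lie at chr16:70289665-70289714 (AARS, minus strand), chr11:3057418-3057446 (CARS, minus), chr9:92293698-92293731 (IARS, minus), chr12:57488043-57488071 (MARS, plus), chr18:57621815-57621843 (NARS, minus), chr5:33440946-33440974 (TARS, plus) and chr12:32756066-32756115 (YARS2, minus). Counted from the first transcribed base as 0, the match began 187 bases before the start in AARS, 13 in IARS, 4 in MARS and 2 in CARS. In TARS and NARS it began 2 and 14 bases after it. In YARS2, whose match differs from the cytosolic 6 in its wild-card base, it began 197 bases before the start. The RefSeq start of MARS lies 12623 bases downstream of the first base of the span given for MARS in the count table, so its window may belong to another start. The same limit holds for CARS2, which had no match and whose RefSeq start lies 7088 bases from the start of its span. For KARS and HARS, also without a match, the distances were 978 and 654 bases. A match is a run of letters and not a binding site that these data measured.

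Levels set the scale of the family. Given per length, as the RPKM (reads per kilobase of exon, scaled to the library total) that the authors deposited, the 20 cytosolic genes summed to 810, 917, 665 and 923 RPKM. The 16 mitochondrial genes summed to 131, 135, 130 and 127 RPKM. Cytosolic sums were thus lowest in T24T vector and similar in both circ libraries, whereas mitochondrial sums moved little. The cytosolic to mitochondrial ratio was 6.18 in the EJ vector library and 6.80 with circ, and 5.11 and 7.28 in the T24T pair. Without GARS and KARS, which belong to both compartments, it was 5.23, 5.71, 4.16 and 6.01. These ratios have no replicate within a line.

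Seryl-tRNA synthetase, SARS, had the highest median level over the 4 libraries, 124 RPKM (73.5 to 135). NARS (89.1), AARS (88.7) and KARS (85.2) followed, with ranges over the libraries that overlapped each other and that of SARS. The order of these genes, SARS included, is thus not fixed, and in T24T vector KARS (90.7 RPKM) was above SARS (73.5). CARS (10.1) and WARS (9.82) were the lowest cytosolic members, with overlapping ranges. Among mitochondrial genes IARS2 stood alone at 42.7 RPKM (41.5 to 44.2), followed by RARS2 at 17.3, and MARS2 was lowest at 0.796 RPKM. In most of the 16 pairs for the same amino acid the cytosolic gene was the higher, up to 48.0-fold for EPRS over PARS2 in T24T circ. The isoleucine pair was the other way round, with IARS at 0.422, 0.439, 0.340 and 0.415 of the IARS2 level, and RARS and RARS2 were nearly level (0.887, 1.03, 1.08 and 1.19). Lengths are the full exon unions of the annotation, 5079 bases in the cytosolic median and 3628 in the mitochondrial, so levels of genes with many isoforms are set low.

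**Figure D1:**
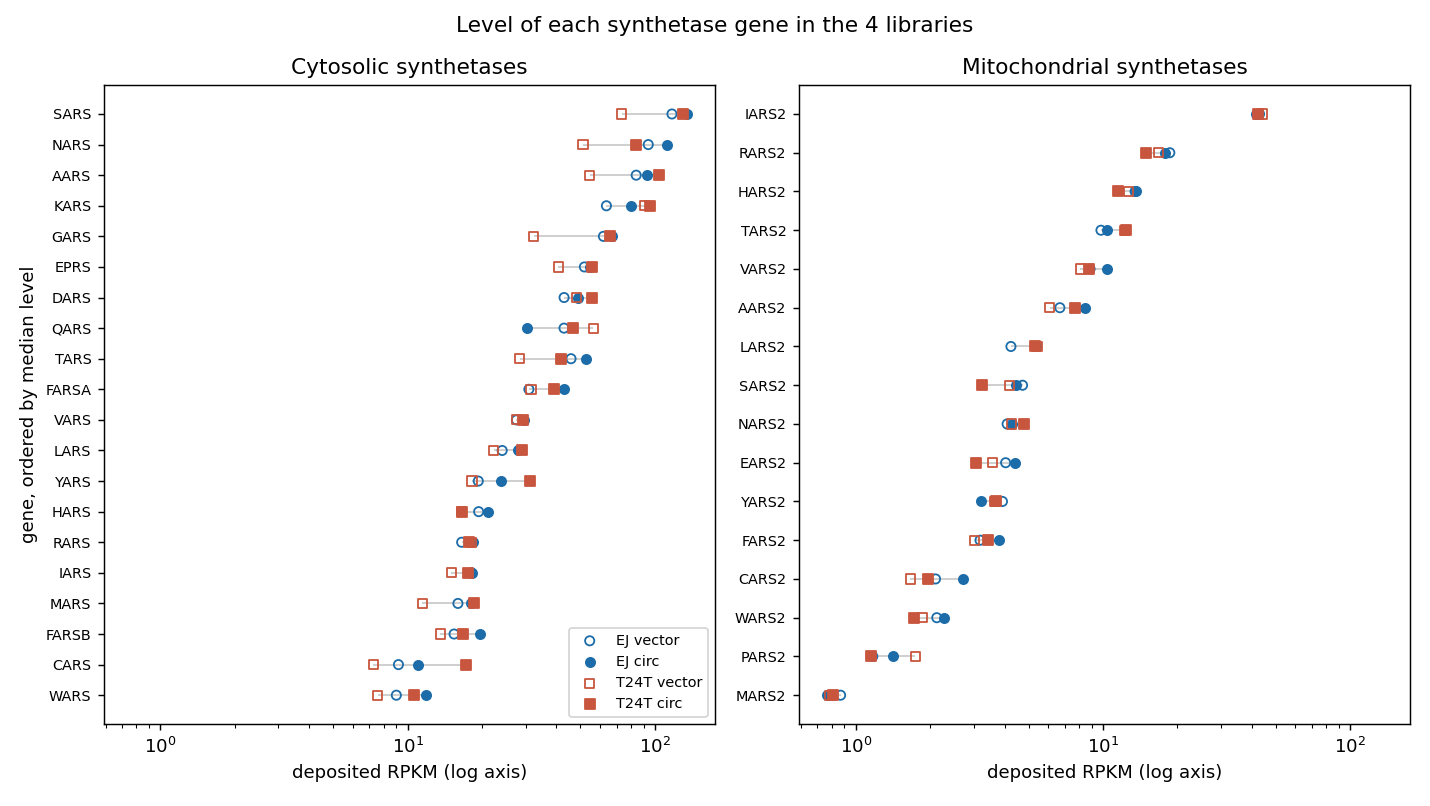
Deposited RPKM (log axis) of each synthetase gene in the 4 libraries, cytosolic left and mitochondrial right, ordered by median, with 1 point per library and a grey line over the range. For GARS, AARS and SARS the open square of T24T vector stands to the left of the other 3 libraries, while the 4 points of IARS2 lie between 41.5 and 44.2 RPKM.

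Circ was first compared with vector over both lines. The edgeR quasi-likelihood test was fitted on all 17689 genes that passed the count minimum, with cell line as a block, and p-values were adjusted by Benjamini-Hochberg over all of them. All 36 members passed the minimum. Of the 20 cytosolic genes, 13 rose, 1 fell and 6 did not pass the test. Of all genes tested, 7.13% rose and 5.56% fell. Of the 16 mitochondrial genes 1 rose and 15 did not pass, a share close to that of all genes. The median log2 fold change was 0.37 over the cytosolic and -0.01 over the mitochondrial members, and 0.00 over all genes.

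CARS, which charges cysteine transfer RNA, had the largest log2 fold change of the family. The gene lies at chr11:3000922-3057613 (hg38, minus strand) and held 1441, 1624, 1228 and 3133 counts. The T24T circ library was far above the other 3, which lay close together. Its log2 fold change was 0.78 ± 0.12 (SE from the fit, n = 2 lines, edgeR adjusted p = 5.23e-05). Such an SE rests mostly on spread pooled over genes, since the fit leaves 1 residual degree of freedom, and the standard deviation between the log2 ratios of the 2 lines was 0.71.

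YARS, the tyrosine enzyme, held 2480, 2869, 2523 and 4648 counts (0.56 ± 0.09, edgeR adjusted p = 1.23e-04). Both circ libraries were above both vector libraries. SARS held 7037, 7641, 4753 and 9018 counts (0.53 ± 0.10, edgeR adjusted p = 3.72e-04). NARS, for asparagine, held 6016, 6705, 3529 and 6218 (0.50 ± 0.09, edgeR adjusted p = 3.80e-04). In both genes T24T vector was well below the other 3 libraries. AARS, for alanine, had the same low library, with 5914, 6171, 4129 and 8419 counts (0.55 ± 0.11, edgeR adjusted p = 6.83e-04). A standard deviation of 2 values and the standard error of a mean effect are unlike measures. Standard deviations between the log2 ratios of the 2 lines were 0.35 (YARS), 0.45 (SARS), 0.35 (NARS) and 0.56 (AARS), larger than these standard errors.

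WARS, the tryptophan enzyme and a gene that interferon is known to induce, differed from these in that its lines were alike. Its counts were 895, 1113, 810 and 1221 (0.46 ± 0.09, edgeR adjusted p = 6.13e-04), and the log2 ratios of the 2 lines had a standard deviation of 0.07. FARSA and FARSB, the subunits of phenylalanyl-tRNA synthetase, also rose. FARSA rose by 0.41 ± 0.09 and FARSB by 0.34 ± 0.09, with standard deviations between lines of 0.11 and 0.02. GARS, MARS, TARS, LARS and EPRS were the other cytosolic genes that rose, by log2 fold changes from 0.28 (EPRS) to 0.58 (GARS). Their standard deviations between lines were 0.65 (GARS), 0.37 (MARS), 0.26 (TARS), 0.13 (LARS) and 0.27 (EPRS).

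QARS, the glutamine enzyme, was the member that fell. At chr3:49095932-49105135 (hg38, minus strand), it held 3160, 2102, 4477 and 3961 counts. Circ was below vector in both lines, more so in EJ (-0.37 ± 0.09, edgeR adjusted p = 0.00361). DARS (0.22), KARS (0.21), IARS (0.13), VARS (0.11), HARS (0.08) and RARS (0.07) did not pass, the smallest of their edgeR adjusted p-values being 0.0825 for DARS.

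The mitochondrial gene that rose was AARS2, for alanine, with 450, 533, 441 and 601 counts (0.36 ± 0.10, edgeR adjusted p = 0.0215). Both circ libraries were above both vector libraries. The cysteine enzyme CARS2 had 344, 417, 293 and 371 counts and did not pass (0.32 ± 0.11, edgeR adjusted p = 0.0618). The remaining 14 mitochondrial genes had log2 fold changes from -0.21 (SARS2) to 0.23 (FARS2). Their counts were lower than the cytosolic ones, from 34 in the lowest library of MARS2 to 3187 for IARS2, against 771 to 9018 for cytosolic genes, and standard errors reached 0.28 for MARS2. The log2 fold change of EPRS, 0.28, was about the size of that standard error, so such a change was not detectable in MARS2 at this depth. IARS2, with counts like those of the cytosolic genes (2801, 2540, 3102 and 3187), had -0.04 ± 0.08.

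**Figure D2:**
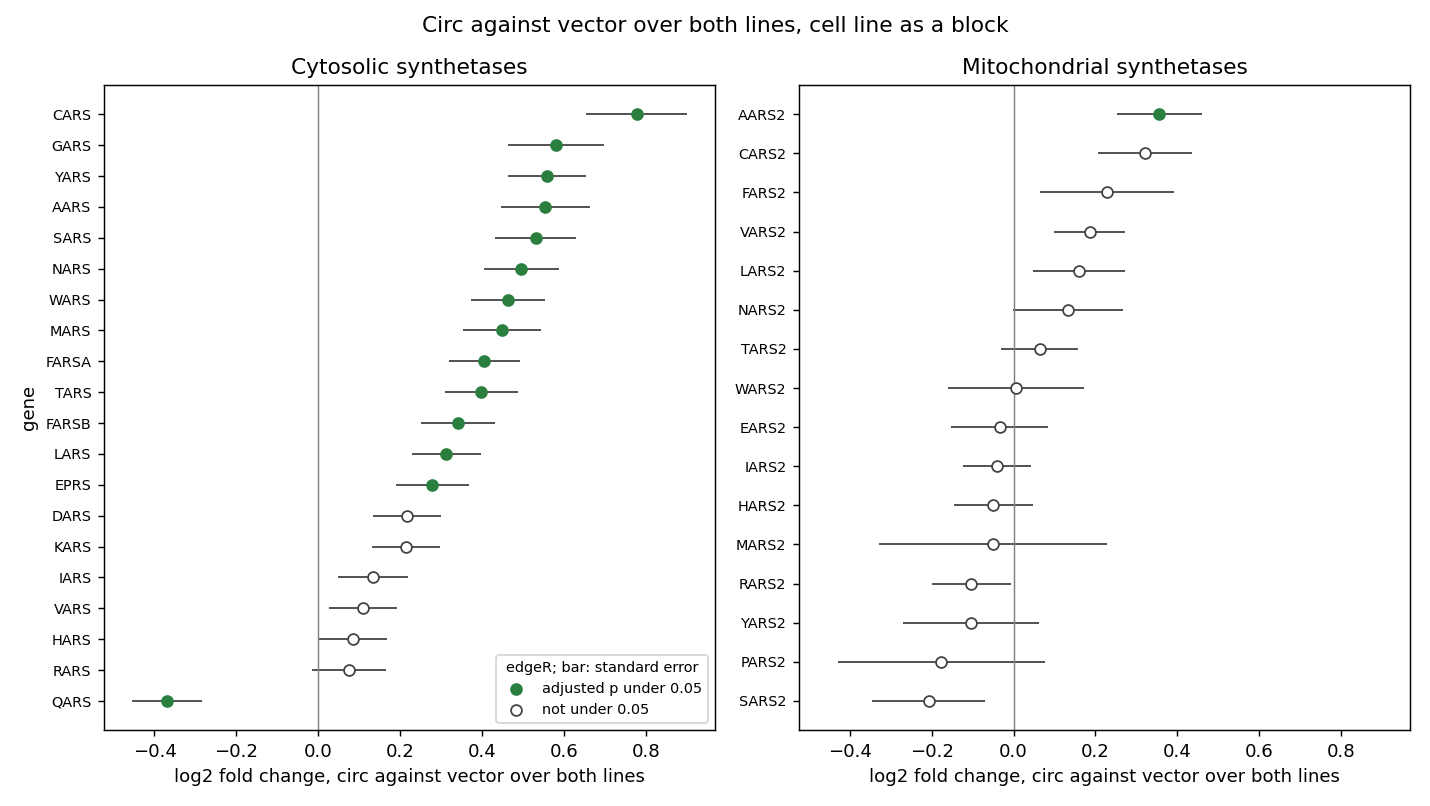
Log2 fold change of circ against vector over both lines from the edgeR fit, with its standard error as a bar, for the 20 cytosolic (left) and 16 mitochondrial (right) genes. Filled points passed an adjusted p of 0.05, 13 cytosolic genes to the right of 0 and QARS to the left, against AARS2 alone among the mitochondrial genes.

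Within the cytosolic class, the multisynthetase complex can be set apart from the other enzymes. Of the 8 complex members, EPRS, LARS and MARS rose and QARS fell. Of the 12 others 10 rose and 0 fell by the edgeR test, against 7.13% and 5.56% of all genes. For the complex the median log2 ratio of circ over vector was 0.17 in EJ and 0.24 in T24T, and outside it 0.23 and 0.66. This difference was not tested. Of the 3 scaffold proteins of the complex, AIMP2 rose (371, 506, 367 and 452 counts, 0.39 ± 0.11, edgeR adjusted p = 0.0206), and AIMP1 (1218, 1357, 1216 and 1498 counts, 0.24 ± 0.09, 0.0629) and EEF1E1 (400, 326, 507 and 412 counts, -0.29 ± 0.11, 0.0848) did not pass.

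The calls depend on the model. Of these 15 members DESeq2 called NARS, SARS and YARS, and edgeR without the cell-line block and limma on log2(RPKM + 1) each called 0 (4 and 13 cytosolic and 0 and 1 mitochondrial genes at an unadjusted p under 0.05). These 2 settings called 0 of all 17689 genes, and DESeq2 called 334 of them. With a minimum of 50 counts in a library of each line, EPRS was no longer called.

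Each line was then taken alone, where no test is possible, with a 1.5-fold difference as the mark. Folds are given with 95% intervals from the exact binomial method, which reflect counting error alone. In EJ, 0 of the 36 members were 1.5-fold higher or lower, against 7.24% and 6.05% of all genes. All genes include many with far fewer counts than the cytosolic members, where counting error is larger. The shares given here are thus not those of genes of like depth. In T24T, 7 of the 20 cytosolic genes were 1.5-fold higher, against 7.76% of all genes, and none was lower, against 6.08%. Of the 16 mitochondrial genes none was past the mark in either direction. The genes past it were CARS, GARS, AARS, SARS, YARS, NARS and MARS, and TARS lay just under the mark at 1.499-fold, against 1.64-fold for MARS just above it.

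CARS was 2.42-fold higher in T24T circ than in T24T vector (95% interval 2.27 to 2.59) and 1.21-fold higher in EJ (1.12 to 1.29). GARS, which charges glycine transfer RNA in both compartments, held 4022, 4102, 2265 and 4919 counts. It was 2.06-fold higher in T24T (1.96 to 2.17) and 1.09-fold in EJ (1.04 to 1.14). AARS was 1.94-fold higher in T24T (1.86 to 2.01) and 1.12-fold in EJ (1.08 to 1.16). Among cytosolic genes these 3 had the widest gap between the lines, with T24T minus EJ differences of log2 ratios of 1.01 (0.86 to 1.15), 0.92 (0.82 to 1.01) and 0.79 (0.72 to 0.87).

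KARS, the other enzyme of both compartments, went against this order. Its counts were 4050, 4768, 6219 and 7007, which made it 1.26-fold higher in EJ (1.21 to 1.31) and 1.07-fold in T24T (1.03 to 1.11). FARSA was likewise further up in EJ, 1.40-fold (1.30 to 1.51), than in T24T, 1.26-fold (1.17 to 1.35).

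Directions were shared even where sizes were not. Circ was above vector in 19 of 20 cytosolic genes in EJ and in 18 of 20 in T24T, where 49.9% and 51% of all genes were. QARS was below in both lines, and RARS was at 0.997 of its vector level in T24T. Mitochondrial genes were split, 11 of 16 above in EJ and 8 of 16 in T24T. Median log2 ratios for EJ and T24T were 0.21 and 0.44 among cytosolic genes and 0.10 and 0.02 among mitochondrial ones, against 0.00 and 0.01 over all genes.

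**Figure D3:**
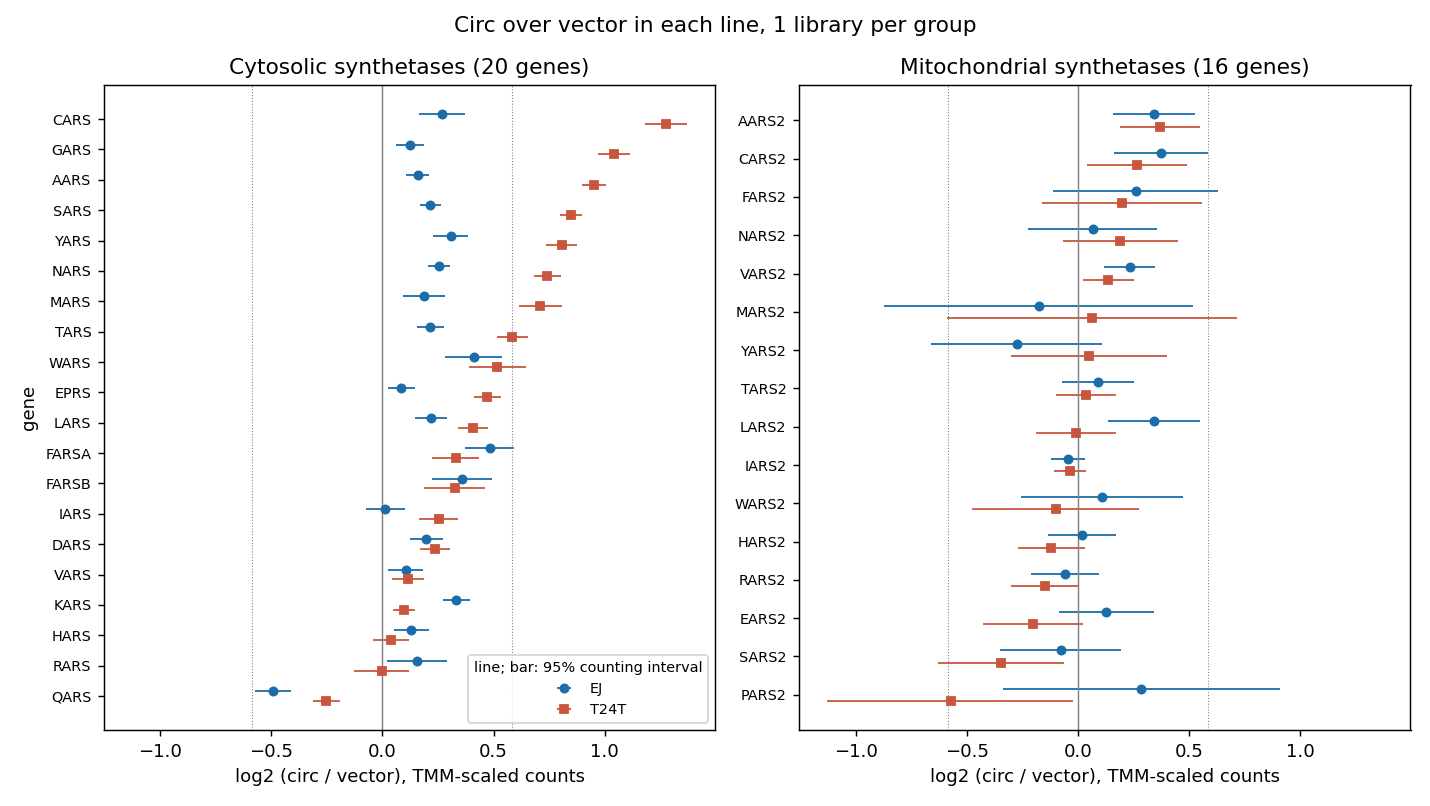
Log2 ratio of circ over vector for each synthetase gene in EJ (circles) and T24T (squares), with 95% counting intervals as bars and dotted lines at a 1.5-fold difference. In T24T 7 cytosolic genes lie beyond the right dotted line, all EJ points lie between the lines, and the points of the mitochondrial genes lie between them in both lines.

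The T24T ratio exceeded the EJ ratio in 15 of 20 cytosolic and 5 of 16 mitochondrial genes, against 51% of all genes. For 4 cytosolic genes (CARS, GARS, AARS and SARS) it did so by 1.5-fold or more, against 8.41% of all genes, and PARS2 alone was past that mark the other way, against 7.33%. PARS2 had 43, 49, 69 and 49 counts and an interval of -1.70 to -0.01, so its gap is loosely fixed. Among mitochondrial genes with 50 counts in every library, LARS2 (-0.35, interval -0.62 to -0.07), EARS2 (-0.33, -0.64 to -0.02) and YARS2 (0.32, -0.20 to 0.85) differed most between the lines. LARS2 held 358, 424, 493 and 517 counts, EARS2 362, 370, 346 and 317, and YARS2 132, 102, 132 and 144. With 1 library per group this difference leaves no residual degree of freedom, and it was not tested beyond counting error.

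Pairing enzymes for the same amino acid puts the compartments side by side. In T24T the cytosolic gene had the larger log2 ratio in 15 of 16 pairs, with a median difference of 0.57. In EJ it did so in 10 of 16, with a median of 0.12. With its sign kept, the difference was higher in T24T than in EJ in 14 of 16 pairs, the exceptions being the phenylalanine and arginine pairs. The 14 include valine, whose difference was negative in both lines (-0.13 in EJ and -0.02 in T24T) and so narrower in T24T. Phenylalanine was represented by FARSA, and with FARSB, tried after seeing the data, its difference was 0.10 in EJ and 0.13 in T24T, which made 15 pairs of 16. Serine had the widest gap in T24T, where SARS had a log2 ratio of 0.85 and SARS2 one of -0.34. Valine was the exception there, with 0.11 for VARS and 0.14 for VARS2. The glutamate and proline pairs share EPRS as their cytosolic gene and are not separate on that side.

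**Figure D4:**
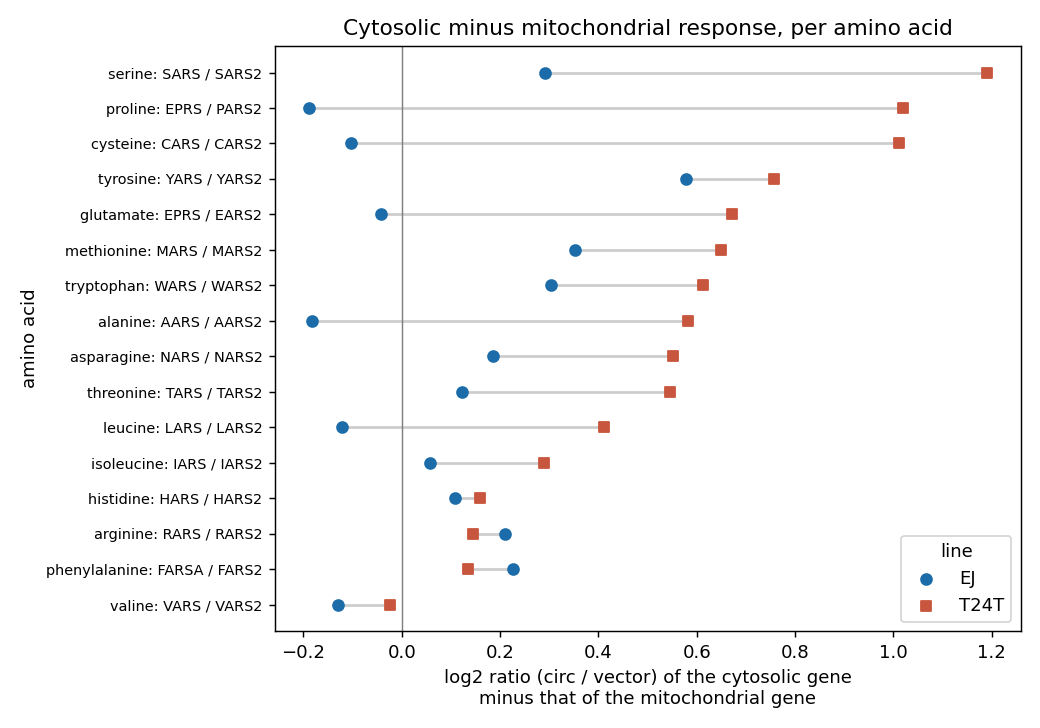
For each amino acid, the log2 ratio (circ over vector) of the cytosolic gene minus that of its mitochondrial counterpart, in EJ (circles) and T24T (squares). All T24T points but that of valine lie to the right of 0, and in 14 of 16 pairs they lie to the right of the EJ point.

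HARS and HARS2, both for histidine, lie head to head on chromosome 5, with RefSeq starts 85 bases apart. The bases between the starts are shown because they lie before both RefSeq starts (chr5:140691371-140691454, on the strand of HARS2). In the count table the spans are longer, chr5:140673173-140692024 for HARS and chr5:140691426-140699291 for HARS2, so the stretch lies within HARS there and HARS2 begins inside it.
HARS/HARS2: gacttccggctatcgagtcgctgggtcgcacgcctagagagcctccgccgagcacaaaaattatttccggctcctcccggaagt

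HARS held 2557, 2615, 2344 and 2539 counts and HARS2 719, 682, 727 and 705. Neither passed the test (0.08 ± 0.08 and -0.05 ± 0.10, edgeR adjusted p = 0.576 and 0.805), and neither promoter held TGATGNAA. Their exons overlap by 592 bases on opposite strands, 17.4% of the HARS2 length, so their counts are not fully separate.

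The 6 cytosolic genes with TGATGCAA were 2.42-fold (CARS), 1.94-fold (AARS), 1.67-fold (NARS), 1.64-fold (MARS), 1.499-fold (TARS) and 1.19-fold (IARS) higher in T24T circ than in T24T vector. IARS had the smallest of these and did not pass the test over both lines. The 10 cytosolic genes with an entry and no match had T24T folds of 2.06 (GARS), 1.80 (SARS), 1.43 (WARS), 1.39 (EPRS), 1.26 (FARSA), 1.25 (FARSB), 1.07 (KARS), 1.03 (HARS), 0.997 (RARS) and 0.840 (QARS). The sets overlapped, with 6 of the 10 above IARS. In EJ the 6 matched genes ran from 1.01-fold (IARS) to 1.21-fold (CARS). FARSA (1.40-fold), WARS (1.33-fold), FARSB (1.28-fold) and KARS (1.26-fold), with no match, were above all of them there. YARS2, the mitochondrial gene with TGATGGAA, stood at 1.04-fold (0.812 to 1.32).

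The lines were also compared with each other in the same fit, with transfection as the block. Of the 20 cytosolic genes 3 were higher and 5 lower in T24T, against 21.9% and 19.5% of all genes. Of the mitochondrial genes 1 was higher and 1 lower, both under those shares. QARS (0.57 ± 0.09, edgeR adjusted p = 2.07e-06), KARS (0.45 ± 0.08, 5.46e-05) and DARS (0.24 ± 0.08, 0.0193) were higher in T24T. DARS held 2696 and 2892 counts in EJ and 3262 and 4049 in T24T. It had 42.9 and 49.0 RPKM in EJ against 48.2 and 55.9 in T24T, so the lines overlapped in RPKM. Scaled as in the test, T24T vector stood at 1.17 of EJ vector (1.11 to 1.23) and EJ circ at 1.15 (1.09 to 1.21). T24T circ stood at 1.20 of EJ circ. On that scale both T24T libraries lay above both EJ libraries, T24T vector only by little. NARS (-0.58 ± 0.09, 5.46e-06), TARS (-0.45 ± 0.09, 1.14e-04) and GARS (-0.42 ± 0.12, 0.00456) were the furthest below EJ, and SARS and HARS were lower too. TARS, for threonine, held 4097 and 4446 counts in EJ and 2737 and 4321 in T24T, so its T24T circ count, before scaling, lay between the EJ counts. In RPKM it had 45.8 and 52.9 in EJ against 28.4 and 41.8 in T24T, so both T24T libraries were lower once scaled. TARS2 was higher in T24T (0.35 ± 0.09, 0.00368), with 626 and 624 counts in EJ and 841 and 909 in T24T, and CARS2 was lower (-0.34 ± 0.11, 0.0167). Of these 10 members DESeq2 called KARS, QARS, NARS and TARS, and edgeR without the transfection block called 0 (3 cytosolic genes and 1 mitochondrial gene at an unadjusted p under 0.05). With RLE scaling 13 members were called, CARS, YARS and EARS2 in addition.

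That average hides a gap that was present in the vector libraries and mostly absent in the circ libraries. In vector, 14 of 20 cytosolic genes were lower in T24T than in EJ, and in circ 6 of 20 were, against 48.8% and 49.5% of all genes. The cytosolic median of the T24T over EJ log2 ratio was -0.19 in vector and 0.05 in circ, and the mitochondrial one was -0.06 and -0.12. GARS stood in T24T at 0.543 of the EJ level in vector (0.515 to 0.572) and at 1.03 in circ (0.984 to 1.07). SARS stood at 0.651 (0.628 to 0.676) and 1.01 (0.979 to 1.04), and NARS at 0.566 (0.542 to 0.590) and 0.794 (0.766 to 0.821). CARS was lower in vector, 0.822 (0.761 to 0.887), and higher in circ, 1.65 (1.55 to 1.75). The T24T vector library enters both this gap and the circ over vector ratio of T24T, so these are 2 views of the same counts.

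**Figure D5:**
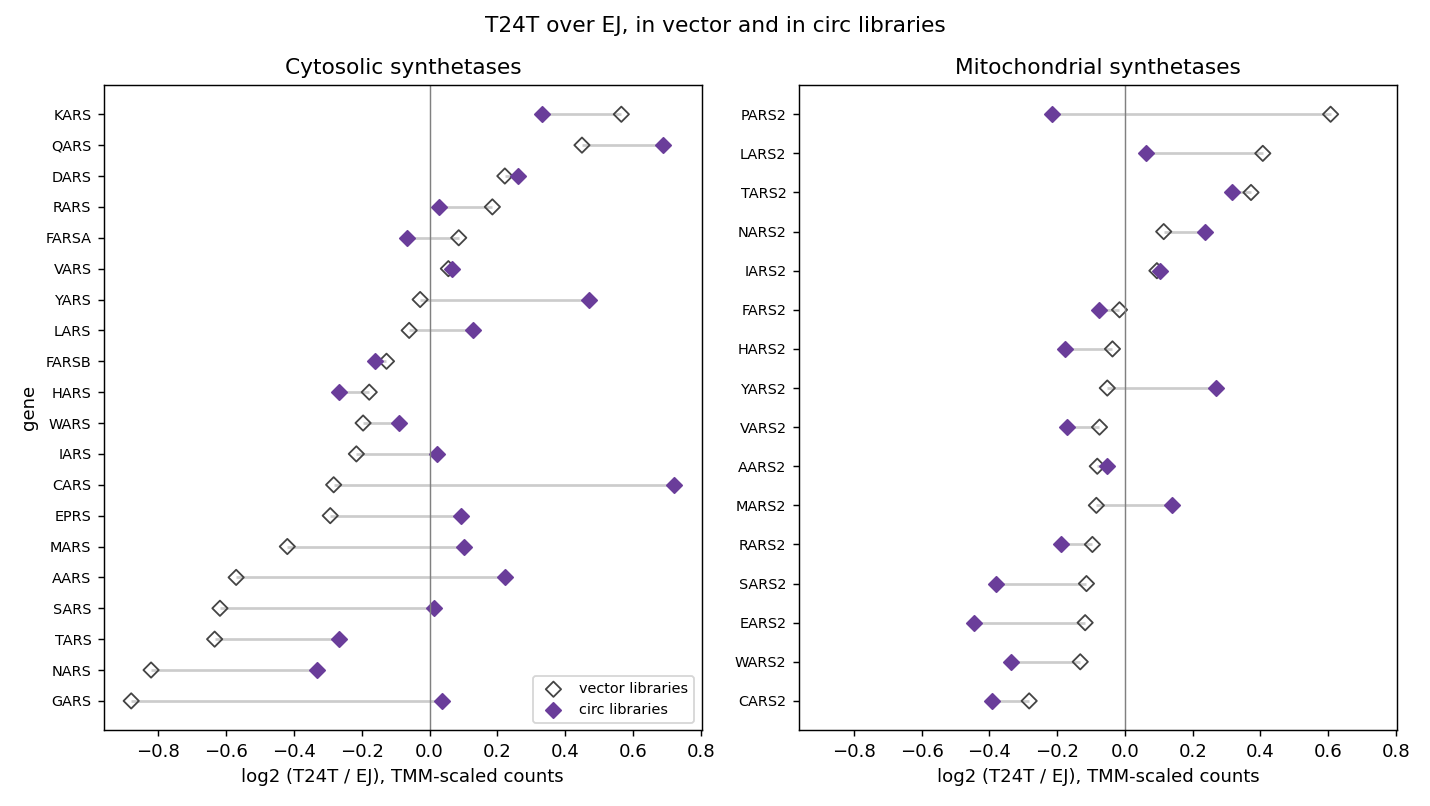
Log2 ratio of T24T over EJ for each synthetase gene, in the vector libraries (open diamonds) and in the circ libraries (filled diamonds). For GARS, SARS and AARS the open diamond lies well to the left of 0 and the filled one at or to the right of 0, while PARS2 is the mitochondrial gene with the widest gap.

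Other genes of the pathway give the setting. Of 26 genes known to act in or under the ATF4 pathway, synthetases left out, 11 rose and 1 fell over both lines. Of all genes tested, 7.13% rose and 5.56% fell. The listed genes' log2 ratios had a median of 0.04 in EJ and 0.88 in T24T. In T24T 17 of 26 were 1.5-fold higher and 0 lower, against 7.76% and 6.08% of all genes. In EJ 6 were 1.5-fold higher and 2 lower, against 7.24% and 6.05%. The gene that fell over both lines was CHAC1, with 68, 18, 7 and 6 counts (edgeR adjusted p = 0.0103). CHAC1 and DDIT4 (3588, 1855, 3884 and 8797 counts) were the 2 lower in EJ. PPP1R15A, a phosphatase subunit that ends the stress response, held 2888, 6947, 4406 and 10928 counts (1.30 ± 0.08, edgeR adjusted p = 1.74e-12). ATF3, a stress-induced transcription factor, held 423, 1150, 117 and 757 (1.98 ± 0.14, edgeR adjusted p = 2.92e-11). Both were higher with circ in each line. SLC3A2, the shared chain of amino acid transporters, held 3523, 5872, 1272 and 4439 counts (1.27 ± 0.12, edgeR adjusted p = 6.34e-09). ATF4 mRNA itself, with 7693, 5811, 4912 and 6560 counts, was lower with circ in EJ and higher in T24T and did not pass (0.02 ± 0.10, edgeR adjusted p = 0.943). This list was drawn up with earlier results of these data known and is no independent support.

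Genes next to the synthetases in translation mostly did not pass, where 7.13% of all genes rose and 5.56% fell. Of 14 genes of transfer RNA maturation, export and editing, TSEN34, a subunit of the splicing endonuclease, fell (868, 605, 845 and 684 counts, -0.40 ± 0.09, edgeR adjusted p = 0.00413) and none rose. Next by adjusted p were TSEN15 (152, 170, 170 and 256 counts, 0.0704) and RTCB (2199, 2413, 2199 and 2659 counts, 0.0870). Of 7 cytosolic elongation and termination factors, the release factor gene ETF1 rose (3105, 3491, 2585 and 3416 counts, 0.30 ± 0.08, edgeR adjusted p = 0.0157), and EEF1B2 (9350, 8052, 13176 and 12729) and EEF1A1 (92191, 89243, 115085 and 135636) did not pass. Of 9 mitochondrial translation factors, MTIF2, for initiation, rose (822, 974, 859 and 1135 counts, 0.33 ± 0.09, edgeR adjusted p = 0.0119), and MTRF1 (65, 38, 68 and 58) and MTRF1L (693, 720, 544 and 663) did not pass. None passed among the 4 partners of mitochondrial charging (the amidotransferase genes QRSL1, GATB and GATC, and MTFMT) or the 4 genes of the selenocysteine route (SEPSECS, PSTK, SEPHS1 and SEPHS2), with edgeR adjusted p-values from 0.0861 (GATB) upward. GATB held 364, 395, 299 and 410 counts, GATC 683, 602, 818 and 728, and QRSL1 333, 391, 360 and 376. SEPHS2 held 303, 339, 254 and 295, SEPSECS 52, 57, 61 and 78, and PSTK 36, 40, 42 and 47.

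Mitochondrial transfer RNA genes, whose products are the substrates of the mitochondrial enzymes, were tested as a list of their own. Of 22, 21 fell, against 5.56% of all genes, and MT-TV did not pass (0.21 ± 0.11, edgeR adjusted p = 0.236). MT-TS1 held 1584, 677, 2150 and 1452 counts (-0.87 ± 0.10, edgeR adjusted p = 1.59e-07), MT-TG 2392, 1419, 3867 and 2483 (-0.69 ± 0.08, 8.49e-07) and MT-TD 447, 254, 598 and 273 (-0.97 ± 0.12, 1.31e-06). In all 3 the circ library was below the vector library of its line. These genes are short and lie between others on long precursors, so counts from uncut precursor RNA and from mature transfer RNA cannot be told apart.

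Several members share exon sequence with a neighbour on the other strand, and the use of strand in counting is not given in the sources used here. MARS shares 355 bases, 5.05% of its length, with DDIT3, a stress response gene with 381, 644, 284 and 912 counts, beside 1756, 1871, 1361 and 2346 for MARS. CARS shares 205 bases with CARS-AS1, which held 69, 100, 82 and 196 counts. SARS2 shares 46.2% of its length with the transcript CTC-360G5.8 on its own strand. VARS2 shares 22.0% of its length with GTF2H4, also on its own strand, which held 425, 409, 408 and 380 counts. The part of these overlaps in the values of MARS, CARS, SARS2 and VARS2 was not tested. Of the 14 pseudogene copies in the table that carry a member's name, none had more than 1 count in any library.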

How the data were processed

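Raw counts per gene (56303 genes) and RPKM (29817 genes) were used as the authors deposited them. Trimmomatic, HISAT2 and hg38 are named per the submitters' processing notes, without versions. The counter, annotation and use of strand are not given in the sources used here. All deposited RPKM values (100%) equalled count over length and library total within a relative tolerance of 1e-06. Columns were matched to samples by their descriptions, which write T24 for T24T, and 0 sample columns were left out.

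Genes with 10 counts in 1 library and 20 over the 4 libraries were kept (17689). Counts were scaled by TMM and tested in edgeR 4.0.16 (R 4.3.3), with Benjamini-Hochberg adjustment at 0.05. The fit has 1 residual degree of freedom, 30.5 prior ones and a common biological coefficient of variation of 0.0704. Log2 ratios use a prior count of 2. DESeq2 1.42.0 and limma 3.58.1 served as alternatives. Libraries of a line were paired by that line.

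The members and lists were chosen with earlier results of these data known. Every member is accounted for, and full values are given for up to 6 per class and direction with the smallest adjusted p, up to 3 per class with the largest difference between the lines' ratios among those with 50 counts in every library, up to 3 per class and direction between the lines, GARS, KARS, HARS and HARS2 always, and up to 3 per other list. Other members are named as examples after their values were seen. RefSeq promoters were matched by symbol or synonym. Protein sequences were not analysed here.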

Additional observations from a re-analysis of the deposited data

How the results depend on the processing

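Over both lines, the 13 rises and 1 fall among cytosolic genes and the 1 mitochondrial rise were within 1.5 times of these counts under RLE scaling, library size alone, no filter, a minimum of 50 counts in each line and limma-voom. DESeq2 gave 3 cytosolic rises, 0 falls and 0 mitochondrial rises (11 cytosolic and 0 mitochondrial genes at an unadjusted p under 0.05, and 334 of all genes called). Limma on log2(RPKM + 1) gave 0, 0 and 0 (13 and 1 unadjusted), and edgeR with no replicate block for the cell line gave 0, 0 and 0 (4 and 0 unadjusted), and both called 0 of all 17689 genes. Why the models differ was not tested. Between the lines, the main counts were 3 cytosolic genes higher and 5 lower in T24T, and 1 mitochondrial gene each way. RLE scaling gave 5 cytosolic genes higher and 2 mitochondrial genes lower, and library size alone gave 2 mitochondrial genes lower. A minimum of 50 counts, DESeq2 and limma on RPKM each gave 2 cytosolic genes lower, and the last 2 gave 0 mitochondrial genes either way (1 and 2 unadjusted). With no replicate block for transfection all 4 counts were 0 (3 cytosolic and 1 mitochondrial gene unadjusted). Leaving out 1 library leaves no residual degree of freedom with the block, so no such test was run. A 2-fold mark left 2 of the 7 cytosolic genes in T24T, CARS and GARS. Class medians within each line moved by less than the median counting error of a member under every scaling, prior count, RPKM scale and filter tried, and after removal of GC, length and level trends, which was added after seeing the data. Cytosolic minus mitochondrial medians ranged from 0.08 to 0.12 within EJ and, within T24T, from 0.36 to 0.42. Low counts limit MARS2 and PARS2, which the minimum of 50 counts removed.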
